A study of Mus musculus with 10 samples.

Results

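The deposited data hold a further ratio only indirectly, the expression of each gene in 1 group of sorted mouse bone marrow progenitors over that in another. The authors' deposited table gives 2 comparisons between groups of libraries, and both have the same denominator group, so that subtracting the second log2 fold change from the first leaves the log2 ratio of the first numerator group over the second. The genes described are those with a mean of 3 log2 CPM (read counts scaled to library size) or more in either comparison, without small nucleolar, Cajal body and microRNA names and without Eef1a1. These are 9719 of the 12791 genes of the table. Of them 8915 passed the minimum in both comparisons, 464 in the first alone and 340 in the second alone. Passing in the first alone favors a high ratio, and passing in the second alone a low ratio. The 137 small RNA names at that level and Eef1a1 were set aside.

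The cells were hematopoietic progenitors from the bone marrow of C57BL/6 mice, sorted as Lin- c-Kit+ Sca-1-, measured by bulk RNA sequencing. The labels give 3 naive libraries from mice without a tumor, and 4 KDR-negative and 3 KDR-positive libraries from mice carrying the mouse glioma line GL261 at week 4. GFP knocked into Kdr, which encodes the main VEGF receptor of blood vessels, reported KDR. Whether naive mice carried the allele too was not stated in the labels read here. The labels do not say if each library was a separate mouse or a pool. The header of the table names none of these groups, so the numerator of the first comparison is called the first group, that of the second comparison the second group, and their common denominator the shared group.

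Cells of the sorted kind are a mixture of progenitors that give rise to granulocytes and macrophages or to megakaryocytes and red cells. The sort depletes cells that carry lineage markers, and genes of mature blood cells are low in a clean sort of this kind. Tissue macrophages of bone marrow clear dying cells and recycle the iron of red cells, and they surround maturing erythroblasts.

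The ratio has no standard error and no test, because the table holds no value for any library. The authors' own p-values belong to the 2 comparisons and are given as such. The level of a gene in each group was derived from its mean and fold change. The group weights used for this were chosen to bring the 2 values for the shared group closest. Those values then differed by a median of 0.0020 (log2) over 8915 genes, and by 0.0085 at equal weights. Both comparisons contain the shared group, so their fold changes are set side by side below and are not counted as 2 findings. In bulk RNA, fewer cells of a type and less RNA per cell cannot be told apart.

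Ratios ran from -10.63 to 10.46 on the log2 scale, with a median of -0.02 and a middle range from -0.53 to 0.72. The first group was 2-fold or more higher for 1953 genes (20.1%) and 2-fold or more lower for 754 (7.76%). At 4-fold or more, 776 genes (7.98%) were higher and 82 (0.844%) lower. Genes past either fold were therefore more often higher than lower in the first group. These directions hold on the deposited scale only. Levels summed over all genes came to 2127125 CPM in the first group and 723664 CPM in the second, a ratio of 2.94. Sums of counts scaled to library size alone would be near equal, so these CPM carry some further scaling, which is not stated. Scaling both groups to an equal total would lower every log2 ratio by 1.56. On that scale 392 genes were 2-fold or more higher and 6907 lower, so a ratio between 0 and 1.56 has no fixed direction. At the edge of the level minimum, 142 genes just inside, at 3 to 3.1 log2 CPM, had a median of -0.52, and 134 genes just outside, at 2.9 to 3, had -0.54.

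Most of the ratio came from the first comparison. In the authors' deposited table the second log2 fold change lay within 0.2 of 0 for 8711 of the 9719 genes (89.6%), and 75 were past 2-fold, 71 of them lower and 4 higher. The authors' own adjusted p was under 0.05 for 2286 genes higher (23.5%) and 359 lower (3.69%) in the first comparison, and for 2 genes (0.0206%) in the second. Taking the second comparison into account moved 62 genes past 2-fold higher and 77 back, and moved 109 past 2-fold lower and 91 back. The 71 genes that were 2-fold or more lower in the second group than in the shared group had a median ratio of 6.74, beside median fold changes of 5.12 (first) and -1.60 (second) in the authors' deposited table, and 22 of them are on the list of tissue macrophage genes.

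**Figure D1:**
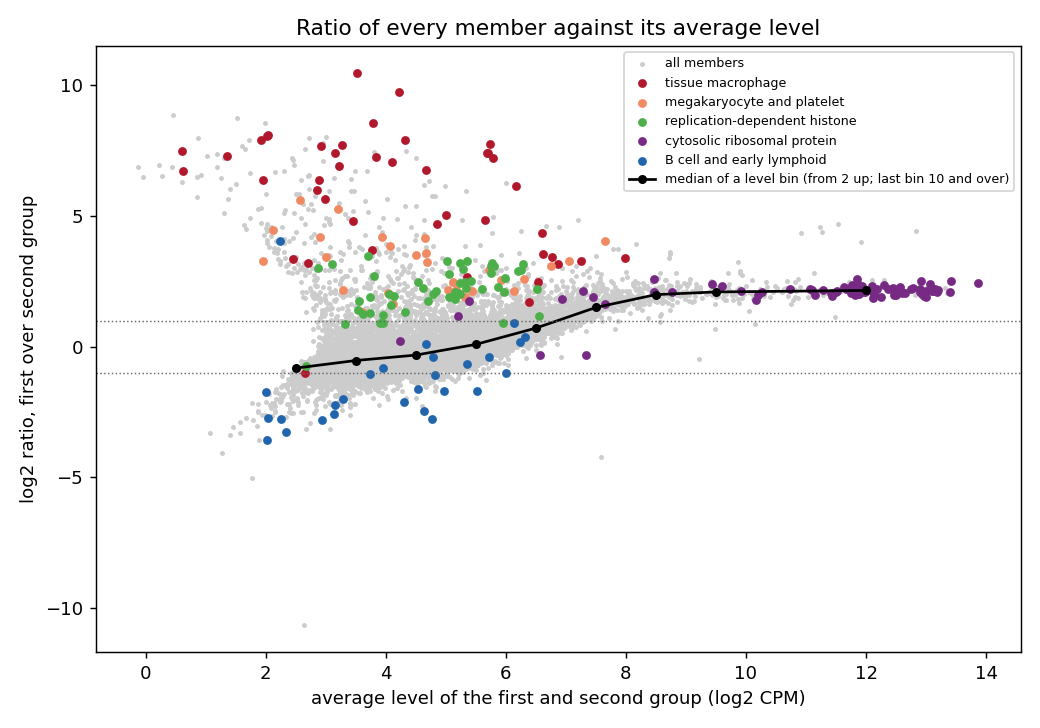
Log2 ratio of the first over the second group (vertical axis) against the average derived level of both groups in log2 CPM (horizontal axis), 1 point for each of 9719 genes. Colors mark 5 gene lists and dotted lines mark 2-fold. The black line joins medians of level bins, which climb from -0.82 at 2 to 3 log2 CPM to 2.16 at 10 and over. The level minimum bears on the lowest bin of that line.

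Genes of tissue macrophages stood highest. The list has 45 genes in the table and 43 among those described, of which 27 passed the level minimum in the first comparison alone and so had to be higher in the first group. Of the 43 genes 42 were 2-fold or more higher and 1 was lower, with a median ratio of 6.39, against -0.02 over all genes. Over the 16 genes that passed the minimum in the second comparison too, the median was 3.50. The list was chosen with earlier results of these data known, and its counts describe the groups without testing them. At equal totals its median would be 4.84, so its direction was the same on both scales.

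Complement and ficolin genes, whose products tag particles for uptake, differed between all 3 groups. C1qa, a chain of the complement starter C1q, was at 678 CPM in the first group, 20.9 in the shared group and 3.89 in the second. C1qb was at 685, 21.2 and 4.43 CPM and C1qc at 688, 20.2 and 3.97 CPM. The 3 chains thus had the same order of groups and close levels in each, with ratios of 7.41, 7.24 and 7.40. Fcna, which encodes ficolin A, was at 793, 20.8 and 3.61 CPM, a ratio of 7.75. The only 2 genes with an adjusted p under 0.05 in the second comparison of the authors' deposited table were C1qa, at a log2 fold change of -2.41 (adjusted p = 0.020), and Fcna, at -2.51 (adjusted p = 0.037).

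Genes of uptake and of iron handling followed the same order of groups. Cd5l, a secreted scavenger-type protein of macrophages, was at 314 CPM in the first group, 8.61 in the shared group and 1.27 in the second, a ratio of 7.91. Axl, a receptor for dying cells, was at 272, 8.39 and 2.40 CPM (ratio 6.78), and Mrc1, the mannose receptor, at 205, 5.25 and 1.45 CPM (7.07). Spic, the transcription factor of red pulp macrophages, was at 183, 4.48 and 1.11 CPM (7.28). Hmox1, the enzyme that opens the heme ring, was at 614, 30.2 and 8.50 CPM (6.15). For each of these genes the shared group lay between the others, and in the authors' deposited table the second log2 fold changes were -2.73 for Cd5l, -1.78 for Axl, -1.82 for Mrc1, -1.97 for Spic and -1.82 for Hmox1, each with an adjusted p above 0.05. The 16 list members under 1 CPM in the second group, such as Mertk at 0.226 CPM and Siglec1 at 0.225 CPM, have ratios whose size depends on how zero counts were handled.

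Other macrophage genes separated the first group alone. Apoe, a lipid carrier protein, was at 830 CPM in the first group against 84.5 in the shared group and 77.3 in the second (ratio 3.38). Trf, which encodes the iron carrier transferrin, was at 485, 53.6 and 48.5 CPM (3.30), and Slc40a1, the iron exporter ferroportin, at 339, 31.0 and 28.3 CPM (3.57). Csf1r, the receptor that macrophages need for growth and that progenitors also express, was at 152, 45.2 and 46.3 CPM (1.71). Clec4e, a lectin receptor, was the member on the other side, at 4.40, 9.22 and 8.93 CPM (-1.01). Of the 43 macrophage genes, 22 had a second fold change of -1 or less in the authors' deposited table, against 0.73% of all genes. But the level minimum favors such values in the 27 genes that passed it only in the first comparison. Over the 16 genes that passed it in the second too, the median second fold change was -0.23.

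**Figure D2:**
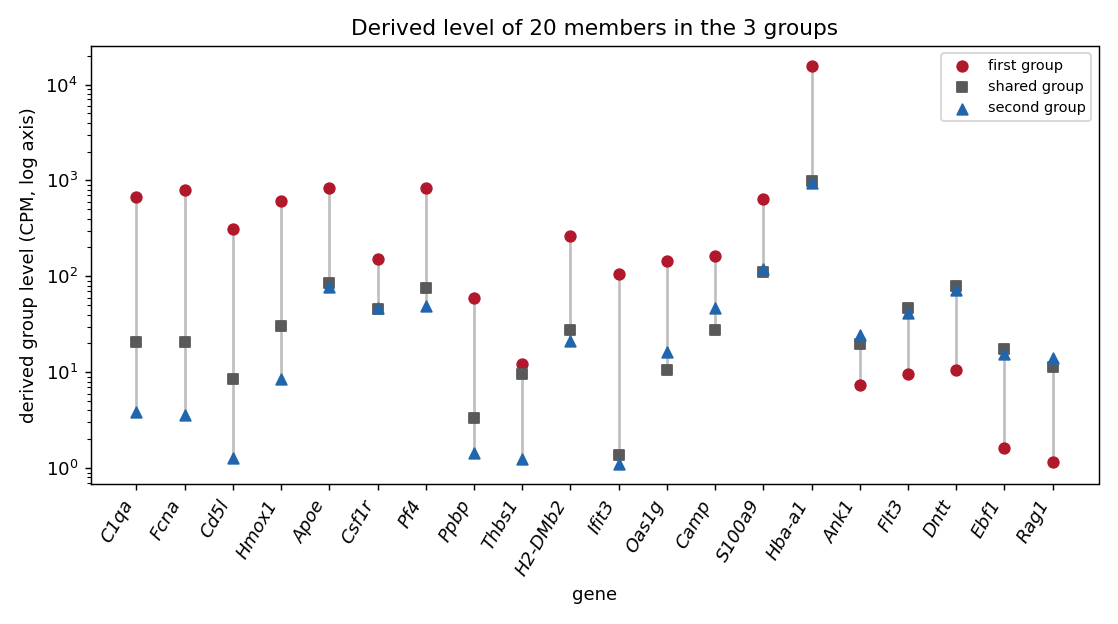
Derived level in CPM (vertical axis, log scale) of 20 genes in the first (red circles), shared (grey squares) and second group (blue triangles), 1 column for each gene, with no error since the table holds no libraries. For C1qa, Fcna, Cd5l, Hmox1 and Ppbp the shared group lies between the others, while for S100a9, Apoe and Csf1r the shared and second groups almost coincide.

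Among the 12 highest ratios at 1 CPM or more in all groups were also myeloid genes outside the macrophage list. Pira2, a paired immunoglobulin-like receptor, was at 280, 3.19 and 1.47 CPM in the first, shared and second groups (7.49). Bcl2a1a and Bcl2a1d, copies of a survival gene of the Bcl2 family, were at 192, 2.61 and 1.01 CPM (7.44) and at 284, 3.53 and 1.80 CPM (7.22). Hpgd, which breaks down prostaglandins, was at 138, 3.50 and 1.20 CPM (6.74). Reads of Pira2 and the Bcl2a1 genes may be divided among near-identical copies, which makes these values uncertain.

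Megakaryocyte and platelet genes were higher in the first group as a body, and part of the gap lay on the side of the second group. All 28 measured list members were 2-fold or more higher and 25 were 4-fold or more higher, with a median of 3.18. Of these genes 11 passed the level minimum in the first comparison alone. Pf4, the platelet factor stored in alpha granules, was at 831 CPM in the first group, 75.8 in the shared group and 48.7 in the second (ratio 4.04). Ppbp, another granule chemokine, was at 59.4, 3.30 and 1.43 CPM (5.26), and Timp3, an inhibitor of matrix proteases, at 33.3, 3.03 and 1.69 CPM (4.21). Cd9, a membrane protein of platelets, was at 423, 46.6 and 42.0 CPM (3.28). The smallest ratios of the list were 1.64 for Selp, the adhesion receptor P-selectin, and 1.32 for Tbxa2r, the thromboxane receptor, and at equal totals Tbxa2r would lie at -0.24. Every one of the 28 genes had a second fold change below 0 in the authors' deposited table, against 42.4% of all genes, with a median of -0.43. Over the 17 genes that passed the level minimum in the second comparison, the median ratio was 2.57 and the median second fold change -0.27.

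Thbs1, which encodes thrombospondin 1, an inhibitor of blood vessel growth carried by platelets and macrophages, owed its ratio to the second group. It was at 12.2 CPM in the first group, 9.62 in the shared group and 1.25 in the second, a ratio of 3.27. In the authors' deposited table its first log2 fold change was 0.33 (adjusted p = 0.85) and its second -2.94 (adjusted p = 0.70), the lowest second value among genes at 1 CPM or more in all groups. Retnlg, a secreted protein of neutrophils, stood at 121, 5.72 and 1.03 CPM, a ratio of 6.71, with -2.39 in the second comparison of the authors' deposited table (adjusted p = 1).

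B cell and early lymphoid genes stood at the other end. Of 27 measured list members 18 were 2-fold or more lower in the first group, 10 of them 4-fold or more, and 1 was higher, with a median of -1.69. Members that passed the level minimum in the second comparison alone, such as Rag1 and Pax5, were favored toward low ratios by it. Rag1, which cuts antigen receptor genes for rearrangement, was at 1.17 CPM in the first group, 11.3 in the shared group and 14.1 in the second (-3.57). Ebf1 and Pax5, transcription factors of the B lineage, were at 1.63, 17.5 and 15.6 CPM (-3.25) and at 1.83, 13.1 and 12.4 CPM (-2.75). Dntt, the polymerase that adds bases at receptor joints, was at 10.4, 79.5 and 71.4 CPM (-2.75). Il7r, the receptor of interleukin 7, was at 1.60, 14.3 and 10.6 CPM (-2.73). The shared and second groups lay close together for these genes and the first group stood apart below them. Of the 27 genes, 23 had a second fold change below 0 in the authors' deposited table, against 42.4% of all genes, with a median of -0.24. This makes the ratio smaller in size than the first fold change for most of the 27. The member 2-fold or more higher was Bank1, a B cell adaptor, at 20.2, 1.70 and 1.11 CPM (4.05). Cd79b (0.92), Tcf3 (0.39) and Cd37 (0.20) were also above 0.

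Others of the 12 lowest ratios have no common lineage. Lef1, a transcription factor of Wnt signalling that lymphoid progenitors use, was at 1.07, 14.1 and 12.8 CPM (-3.56). Met, the receptor of hepatocyte growth factor, was at 2.13, 12.9 and 18.9 CPM (-3.13), and Tac2, a tachykinin precursor, at 1.27, 9.85 and 10.4 CPM (-3.01). Zg16, a lectin of secretory granules, was at 1.20, 15.6 and 13.5 CPM (-3.48). Akap12, a kinase anchor, stood at -2.86 and Gpc4, a cell surface proteoglycan, at -2.82. All of these were between 1.07 and 2.13 CPM in the first group. All but Zg16 passed the level minimum in the second comparison alone, which favors low ratios.

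T and NK cell genes had no common direction. Of 34 genes in the table only 13 reached the level minimum. Of those 3 were higher (23.1%, against 20.1% of all genes) and 4 lower (30.8%, against 7.76%), with a median of 0.02. Cd4, the coreceptor of helper T cells, was at 40.5, 2.92 and 1.51 CPM (4.66), and Lat, an adaptor shared with platelets, at 112, 24.2 and 19.7 CPM (2.49). Tcf7, a transcription factor of T cells and early progenitors, was at 1.61, 12.2 and 7.21 CPM (-2.16), and the kinase gene Lck at 2.31, 13.5 and 9.88 CPM (-2.09). The median second fold change of the list was -0.45 in the authors' deposited table.

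Granulocyte genes were mixed, and for some, such as Camp and Ngp, the second comparison narrowed the ratio. Median second fold changes were only 0.06 for the primary and 0.04 for the late list. Lyz1, at -0.23, and Retnlg, at -2.39, went the other way. For primary granule proteins 10 of 19 genes were higher and none lower, with a median of 1.42, but -0.13 at equal totals. Lyz1 and Lyz2, the lysozymes, were at 796, 32.6 and 27.5 CPM (4.83) and at 1479, 126 and 123 CPM (3.56), whose reads may be shared. Elane, neutrophil elastase, was at 744, 142 and 145 CPM (2.32), while Gfi1, a transcription factor of the granulocyte line, was at 21.1, 37.4 and 36.7 CPM (-0.80). For late granule and S100 genes 14 of 23 were higher and none lower, with a median of 1.31, and -0.24 at equal totals. S100a9, a calcium-binding protein of neutrophils, was at 643, 111 and 119 CPM (2.38). Camp, the cathelicidin of secondary granules, was at 164 CPM in the first group, 27.7 in the shared group and 46.8 in the second, so its ratio of 1.77 was smaller than the 2.55 that the authors' deposited table gives for the first comparison. Ngp, another granule protein, was likewise at 59.7, 14.2 and 23.6 CPM (1.31, and -0.24 at equal totals).

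Genes of eosinophils, and of mast cells and basophils, split within each lineage. Of 11 eosinophil genes 6 were higher (54.5%, against 20.1% of all genes) and 1 lower (9.09%, against 7.76%). Ear10 and Ear2, ribonucleases of eosinophil granules with near-identical relatives, were at 580, 21.6 and 24.2 CPM (4.57) and at 810, 61.6 and 60.8 CPM (3.73), while Siglec5 was at 6.61, 20.1 and 18.3 CPM (-1.47). Of 14 mast cell and basophil genes 3 were higher (21.4%, against 20.1% of all genes) and 4 lower (28.6%, against 7.76%). The lower ones included Il1rl1, the receptor of interleukin 33, at 2.59, 13.5 and 14.5 CPM (-2.48), and Ms4a2, a chain of the high-affinity IgE receptor, at 4.16, 21.9 and 22.6 CPM (-2.43). Second fold changes in the authors' deposited table were 0.10 for Il1rl1 and 0.04 for Ms4a2, and over the eosinophil list they ran from -2.27 to 2.85.

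Of 16 genes of globins and heme synthesis 5 were higher (31.25%, against 20.1% of all genes) and none lower. The list's median was 0.04, -0.36 after subtracting the median of genes of like level (the same bin of 1 log2 CPM) and -1.52 at equal totals. Hba-a1, an alpha globin, was at 15650 CPM in the first group, 992 in the shared group and 945 in the second (4.02), and the beta globin Hbb-b2 at 11860, 395 and 487 CPM (4.57). Globin genes have near-identical copies. Uros, an enzyme of heme synthesis, was at 17.9, 31.6 and 35.8 CPM (-0.99). Among 27 genes of the red cell membrane and erythroid program 12 were lower and 2 higher, with a median of -0.53. Epb4.2, a membrane skeleton protein, was at 2.44, 9.71 and 11.2 CPM (-2.19) and Ank1, ankyrin, at 7.43, 19.9 and 24.2 CPM (-1.70). Their levels were highest in the second group, and the median second fold change of the list was 0.16 in the authors' deposited table. Car2, a carbonic anhydrase, at 255, 97.6 and 102 CPM (1.29) and Zfpm1, the partner of GATA1, at 130, 49.95 and 53.4 CPM (1.26) were the higher members, at -0.27 and -0.30 with equal totals.

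Antigen presentation genes were higher in the first group. Of 10 class II genes 7 were 4-fold or more higher and 2 were lower, with a median of 2.32 and 0.77 at equal totals. H2-DMb2, which helps to load peptides, was at 261, 27.4 and 21.4 CPM (3.58) and Cd74, the invariant chain, at 448, 76.9 and 59.9 CPM (2.9). H2-Oa and H2-Ob, which hold back peptide loading, were at 7.83, 22.2 and 17.6 CPM (-1.17) and at 6.24, 24.4 and 18.1 CPM (-1.54). All 10 had a second fold change below 0 in the authors' deposited table, against 42.4% of all genes, with a median of -0.34. For class I presentation 17 of 27 genes were higher and none lower, with a median of 2.05, for example H2-D1 at 1221, 172 and 170 CPM (2.81), whose reads may be shared with related class I genes.

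Of 63 interferon response genes 28 were higher and 1 lower, with a median of 0.91, and -0.64 at equal totals. Ifit3, an antiviral protein induced by interferon, was at 106 CPM in the first group, 1.36 in the shared group and 1.10 in the second (6.42). Ifi204, a DNA sensor with close relatives, was at 113, 5.45 and 5.49 CPM (4.32). Oas1g, a synthetase of the antiviral messenger 2-5A with close relatives, was at 145, 10.5 and 16.4 CPM, and its ratio of 3.11 was smaller than the 3.77 of its first fold change in the authors' deposited table. Tgtp1, an interferon-induced GTPase, was at 235, 17.9 and 27.98 CPM (3.02). Irf7, the transcription factor that amplifies the response, was at 67.6, 16.8 and 21.3 CPM (1.66). Oasl1, a relative of the synthetases that restrains Irf7, stood at -1.48. A second fold change below 0 was found for 19 of the 63 genes in the authors' deposited table, against 42.4% of all genes. The list's median second fold change there was 0.09.

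The promoters of 4 of these genes are shown because each holds the interferon-stimulated response element, the site that interferon-activated factors bind, in a gene that was over 4-fold higher in the first group. Letters come from RefSeq promoter windows on GRCm38.p6, and capitals mark each match of the motif on either strand, which is GAAA, any 2 bases and GAAA again. In Oas1g 2 matches overlap and form 1 run of capitals. Ifit3 is taken from chr19:34583313-34583442 (plus strand), Oas1g from chr5:120887614-120887691 (minus strand), Tgtp1 from chr11:48992254-48992383 (minus strand) and Ifi205, at 105, 16.3 and 14.6 CPM (2.83), from chr1:174031820-174031949 (minus strand).
Ifit3: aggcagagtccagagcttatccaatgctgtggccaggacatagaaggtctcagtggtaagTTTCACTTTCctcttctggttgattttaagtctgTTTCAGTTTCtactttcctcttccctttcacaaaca
Oas1g: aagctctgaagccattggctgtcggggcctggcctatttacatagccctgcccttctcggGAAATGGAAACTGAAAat
Tgtp1: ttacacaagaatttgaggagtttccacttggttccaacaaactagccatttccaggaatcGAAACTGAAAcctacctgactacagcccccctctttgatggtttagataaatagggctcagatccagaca
Ifi205: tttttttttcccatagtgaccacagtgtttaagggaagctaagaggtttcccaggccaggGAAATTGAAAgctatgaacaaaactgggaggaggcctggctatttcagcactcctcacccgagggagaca

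Windows of 250 bases before the start site were found for 7823 of the described genes. The motif lay in 46.9% of 49 interferon response genes with a window, in 7.47% of 576 genes that were 4-fold or more higher, in 3.39% of 59 that were 4-fold or more lower, in 3.32% of all 7823 and in 3.46% of all 27025 genes of the RefSeq table. The 23 interferon genes with the motif had a median ratio of 1.26 and the 26 without it 0.46, over ranges that overlap, from -0.88 to 6.42 and from -1.48 to 2.36. The letters CCAAT, bound by the factor NF-Y, lay on either strand in 82.6% of 46 histone genes with a window, 41.5% of the described genes and 37.5% of the whole table. A match of letters is a description of the window and does not show that a factor binds there.

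Of 29 stem and multipotent progenitor genes 4 were higher (13.8%, against 20.1% of all genes) and 6 lower (20.7%, against 7.76%), with a median of 0.14. Kit, the c-Kit receptor of the sort, was at 38.8, 58.7 and 60.3 CPM (-0.64), and Ly6a, which encodes Sca-1, at 37.2, 27.6 and 27.2 CPM (0.45). Kdr itself lay under the level minimum in both comparisons and is not among the genes described. Flt3, a receptor of multipotent and lymphoid progenitors, was at 9.54, 46.3 and 41.3 CPM (-2.11) and Sox4 at 13.2, 41.2 and 40.5 CPM (-1.61). Mycn, a growth-promoting transcription factor, was at 46.1, 12.4 and 10.2 CPM (2.16). Among transcription factors of granulocytes and monocytes 5 of 22 were higher (22.7%) and 1 lower, a share of higher genes near that of all genes, with Id2, an inhibitor of E proteins, at 136, 28.8 and 18.4 CPM (2.88).

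Of 32 monocyte and dendritic progenitor genes 15 were higher (46.9%, against 20.1% of all genes) and 4 lower (12.5%, against 7.76%). Their median was 0.78, and -0.78 at equal totals. Ccl6, a chemokine, was at 97.5, 10.3 and 6.73 CPM (3.83), while Cx3cr1, the fractalkine receptor of monocytes, was at 2.23, 13.5 and 13.04 CPM (-2.54). Of 28 inflammatory genes 14 were higher (50%) and 3 lower (10.7%). Among them were Il18 at 136, 8.09 and 4.58 CPM (4.87) and the chemokine gene Ccl3 at 4.43, 19.1 and 20.6 CPM (-2.21). Immediate early genes, which respond within minutes to stimuli and to handling of cells, had 7 of 21 higher (33.3%) and 1 lower (4.76%). Nr4a1 was at 15, 5.41 and 4.17 CPM (1.82). Of 16 genes of endothelial cells and VEGF receptors 7 were higher (43.75%) and 2 lower (12.5%). Among them were Vwf at 77.4, 9.80 and 6.59 CPM (3.52) and Itgb3 at 80.0, 10.9 and 8.23 CPM (3.25), both of which platelets also make. Plvap, a protein of endothelial diaphragms, was at 2.03, 9.17 and 9.15 CPM (-2.16). Of 7 stromal genes listed, 2 reached the minimum, among them Runx2, a bone transcription factor, at 4.55, 22.6 and 19.3 CPM (-2.08). Of 6 brain and glioma genes also 2 did. Mbp, a myelin protein, was at 20.1, 30.9 and 31.2 CPM (-0.63). The other brain gene had a ratio of 5.73, for a list median of 2.55. It was not at 1 CPM or more in all groups, so the size of its ratio is uncertain.

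From an average level of 2 log2 CPM up, the ratio was higher with the level of a gene. Its median was -0.82 at an average level of 2 to 3 log2 CPM, -0.32 at 4 to 5, 0.09 at 5 to 6, 0.72 at 6 to 7, 1.51 at 7 to 8 and 2.16 at 10 and over. Below 2 log2 CPM the order broke, with a median of 5.73 over 57 genes, 68.4% of them 2-fold or more higher and 31.6% lower. A gene with so low an average passes the level minimum only if 1 of the groups is well above it, which favors large ratios. In the bin of 7 to 8 log2 CPM 93.7% of 428 genes were 2-fold or more higher, and of the 127 genes at 10 and over the middle range ran only from 2.03 to 2.27. Binned by the level in the second group alone, the median was 4.59 for 241 genes under 2 log2 CPM, 1.39 for 274 at 2 to 3, -0.50 at 3 to 4 and 2.12 at 8 and over. The level minimum likewise favors high ratios in the bins under 3 log2 CPM. In the bins of average level, median second fold changes stayed between -0.09 and 0.05 from 2 log2 CPM up. Levels in CPM are not scaled to length, and how the counts were scaled between libraries is not stated.

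Of 80 cytosolic ribosomal protein genes 77 were 2-fold or more higher and none lower, with a median of 2.12, but against genes of like level the median was 0.03. Rpl41 was at 35880, 6933 and 6273 CPM (2.46), and Rps29 at 26460, 5247 and 4491 CPM (2.51). Pseudogene copies make the split of their reads uncertain. Subunits of oxidative phosphorylation, higher for 62 of 82, went from a median of 1.42 to 0.04 in the same way, and those of the proteasome, higher for 19 of 47, from 0.85 to -0.10. Splicing factors (40 of 80 higher), heat shock and chaperone genes (22 of 31), translation initiation factors (23 of 53) and genes of the unfolded protein response (18 of 36) went from 1.002, 1.25, 0.84 and 0.89 to -0.07, -0.12, -0.01 and 0.00. At equal totals the medians of all of these lists except that of ribosomal proteins (0.57) lay below 0.

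Of lists with 10 or more genes, 4 were at 1 or more against genes of like level. These were tissue macrophage genes, at a median of 7.14, megakaryocyte genes at 2.62, replication-dependent histones at 2.27 and class II genes at 1.49. Of 51 histone genes, whose messages lack poly(A), 46 were higher and none lower, with a median ratio of 2.20. Hist1h2bc was at 199, 48.1 and 42.0 CPM (2.23) and Hist1h2ap at 103, 12.99 and 10.2 CPM (3.29), both with near-identical copies. Lysosomal genes, higher for 27 of 62, stood at 0.63 against like level, with Psap, which activates lipid-cleaving enzymes, at 1501, 124 and 120 CPM (3.62), and Lgmn, an asparagine-cutting protease, at 272, 14.2 and 9.36 CPM (4.84). B cell genes stood at -1.38 and genes of the red cell membrane at -0.62.

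**Figure D3:**
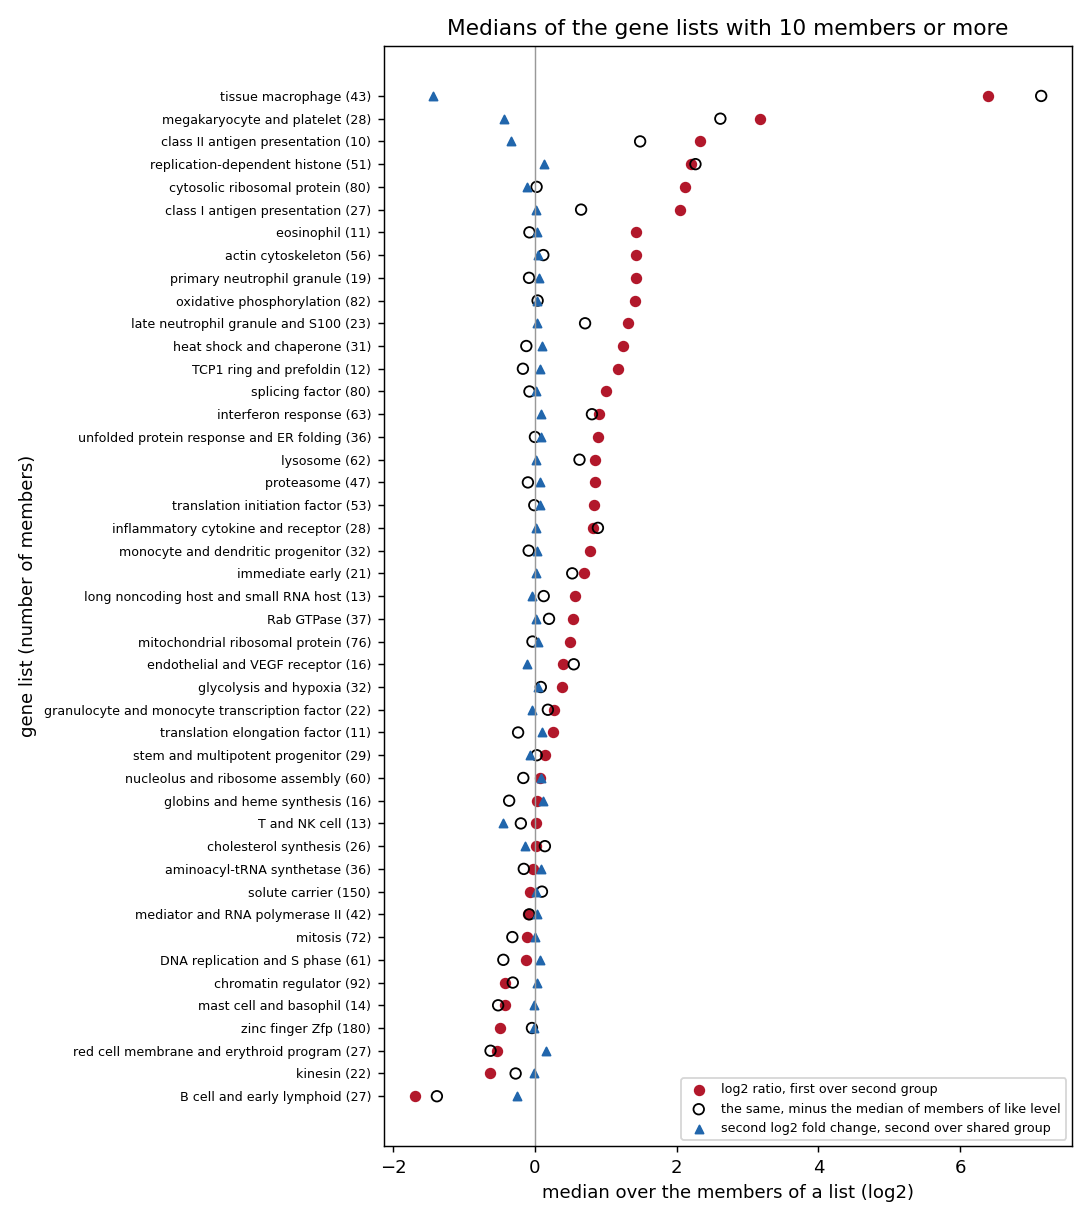
Median log2 value (horizontal axis) of each gene list with 10 or more described genes (vertical axis, number in brackets). Red points give the ratio of the first over the second group, open circles the same after subtracting the median of genes of like level, and blue triangles the second fold change, which lies near 0 except for the macrophage list (-1.44) and a few others.

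Growth and housekeeping lists differed in their counts, which are to be read beside 20.1% of all genes higher and 7.76% lower. Of 56 actin cytoskeleton genes 33 were higher and 1 lower, with a median of 1.43, but 0.12 against genes of like level and -0.13 at equal totals, with Tmsb4x, a keeper of free actin, at 1408, 126 and 127 CPM (3.39) and Actb at 2639, 344 and 347 CPM (2.89). Of 92 chromatin regulators 3 were higher (3.26%) and 8 lower (8.7%), with a median of -0.41. Zfp zinc finger genes were higher and lower for 18 each of 180 (10%), with a median of -0.49. DNA replication genes had 5 of 61 higher (8.2%) and 7 lower (11.5%). Pcna, the sliding clamp, was at 1778, 491 and 487 CPM (1.82) and Brca2 at 5.55, 14.3 and 15 CPM (-1.43). Genes of mitosis had 9 of 72 higher (12.5%) and 3 lower (4.17%). Cks2 was at 1805, 399 and 350 CPM (2.31) and Ect2 at 8.26, 32.3 and 33.0 CPM (-1.99). Glycolysis and hypoxia genes had 12 of 32 higher and 2 lower, with Ldha at 1622, 287 and 307 CPM (2.34) and Egln3, an oxygen sensor, at 8.18, 26.5 and 26.2 CPM (-1.68). Cholesterol synthesis genes had 4 of 26 higher (15.4%) and none lower, and nucleolar genes 8 of 60 higher (13.3%) and 1 lower (1.67%). Both shares of higher genes were under that of all genes. Of 36 aminoacyl-tRNA synthetases 1 was higher, Lars2, the mitochondrial leucine enzyme, at 8864, 400 and 423 CPM (4.35), and 1 was lower, Mars2, at 8.49, 17.7 and 19.3 CPM (-1.18).

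Transcript length went with the ratio as well. Lengths of the longest coding transcript were found for 9394 genes (96.7%). In 5 classes of near equal size, from the shortest to the longest transcripts, the median ratio went from 0.59 through 0.17, -0.06 and -0.19 to -0.54. The median level was also lower with length, from 5.74 to 4.1 log2 CPM. Among genes at 4 to 5 log2 CPM the medians were still -0.09 in the shortest class and -0.54 in the longest. Whether length plays a part in the differences between gene lists was not tested. By chromosome, medians lay between -0.21 on chromosome 16 and 0.16 on chromosome 17, with 0.12 on the X, a range that is small beside that over levels.

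**Figure D4:**
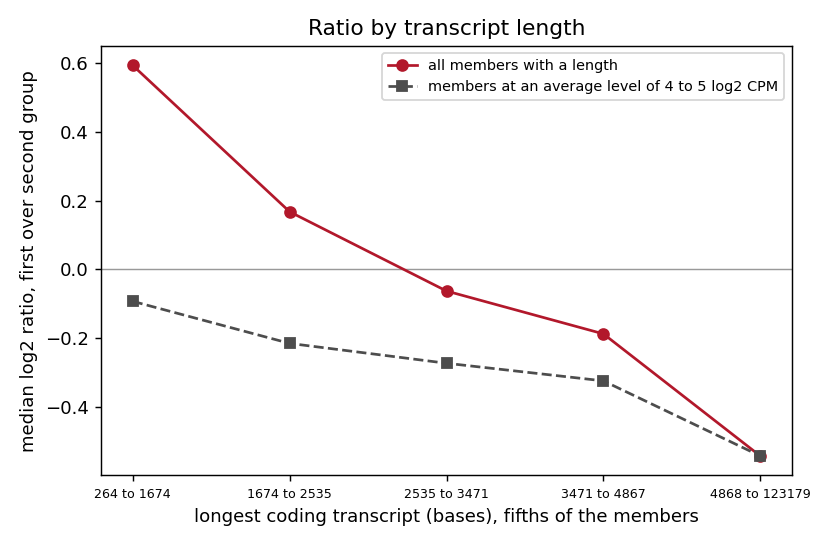
Median log2 ratio of the first over the second group (vertical axis) in 5 classes of the longest coding transcript in bases (horizontal axis). The red line covers all 9394 genes with a length and falls from 0.59 to -0.54, and the dashed line covers genes at an average level of 4 to 5 log2 CPM and falls from -0.09 to -0.54.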

How the data were processed

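RNA libraries of sorted progenitors were prepared with an Illumina TruSeq kit, per the labels' protocols. Bowtie 0.12.2 and build mm8 are named, without roles, per the submitters' processing notes. No label names the counting or testing program. The authors deposited 1 table with log2 fold changes, mean log2 CPM, p-values and adjusted p-values (false discovery rates) of 2 comparisons, per the file headers. The base of 2 is read from the match of the shared group between comparisons. The depth of the libraries is unknown, and the deposited p-values measure only the spread between these libraries, which may be technical.

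The log2 ratio of the first over the second group is the first log2 fold change minus the second. With mean CPM m, log2 fold change f and numerator weight w, the shared group is m / (w × fold + 1 - w), where fold is the ratio before the log. The weights, 0.48 and 0.59 on a grid of 0.01, gave the smallest median difference over 8915 genes (0.0085 at equal weights). The derivation was run on simulated levels built with the same formula and a shared denominator. That run checks the code only and cannot show that the formula holds for the deposited values. Small RNA names are Snord, Snora, Scarna or Mir followed by a digit or "let". Like level means bins of 1 log2 CPM of the average of both groups, with ends joined.

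Members and gene lists were chosen with earlier results of these data known. Genes named are Kit, Ly6a and Kdr; the 12 highest and 12 lowest ratios at 1 CPM or more in all 3 groups, without predicted genes, clone names and pseudogenes; the 6 highest and lowest second fold changes; and, per list, the 2 highest, 2 lowest and 2 with the highest average level. Not all of those are printed. Others, such as Mertk, Siglec1, Slc40a1, Pax5, Ngp, Irf7, Oas1g, Tgtp1 and Ifi205, and the genes named in the closing observations, were picked with their values in view. Chromosomes come from RefSeq on GRCm38.p6 (99.1% of names matched) and lengths from GENCODE transcripts. Python 3.11.15, pandas 2.3.3 and numpy 2.4.6 were used.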

Additional observations from a re-analysis of the deposited data

How the results depend on the processing

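The size of the ratio depends above all on the scale. With equal summed levels over all genes the median of the described genes was -1.58, with 392 genes 2-fold or more higher and 6907 lower, and 212 and 2851 at 4-fold. With equal sums over the described genes alone, chosen after seeing the data, these were -1.67, 360, 7130, 196 and 3298. A level minimum of 5 log2 CPM gave a median of 0.42, 75 genes 2-fold or more lower and 6 lower 4-fold or more. A minimum of 2 gave 147 genes lower 4-fold or more, keeping the small RNA names and Eef1a1 gave 159, and a minimum of 3 in both comparisons gave 40 lower and 466 higher.

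Of 36 list medians above 0, 29 were below it with equal sums over all genes. Among lists with a median of 1 or more these were, with equal sums over all genes and over the described genes, primary granule (-0.13, -0.23), late granule (-0.24, -0.34), eosinophil (-0.13, -0.22), heat shock (-0.31, -0.41), actin (-0.13, -0.22), splicing (-0.55, -0.65), oxidative phosphorylation (-0.14, -0.23) and TCP1 ring and prefoldin genes (-0.38, -0.47). Against genes of like level 13 of the 36 were below 0, among lists of 1 or more primary granule (-0.081), eosinophil (-0.075), heat shock (-0.12), splicing (-0.075) and TCP1 ring genes (-0.17). The brain list went from a median of 2.55 to -0.63 with 1 gene left at 1 CPM in all groups.

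Among genes printed here with a ratio of 1 or more, Car2 (-0.27, -0.36), Gvin1 (-0.0005, -0.096), Ngp (-0.24, -0.34), Tbxa2r (-0.24, -0.33), Tlr6 (-0.31, -0.41) and Zfpm1 (-0.30, -0.39) turned below 0 on those 2 scales. Selp did so on the second (-0.014). Ratios between 0 and 1.56 all fall below 0 with equal sums over all genes, such as Ly6a (-1.11), Cd79b (-0.64) and Xist (-0.66). Against like level Car2 (-0.22), Pcna (-0.32), Tcf3 (-0.33) and Cd37 (-0.52) were among those below 0. The reversals with equal sums follow from the shift itself.

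No paired analysis was possible because the table holds no value for any library. For the same reason no fit without 1 library was run. Depth is unknown.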

Other observations

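Some genes differed from the shared group alike in both numerator groups, and the ratio described here cancels that. Ccl5, a chemokine of T and NK cells, was at 11.8 CPM in the first group, 27.5 in the shared group and 11.7 in the second, a ratio of 0.02. In the authors' deposited table its log2 fold changes were -1.22 (adjusted p = 0.015) and -1.24 (adjusted p = 0.51). Vill, an actin-binding protein related to villin, was at 15.7, 7.78 and 13.8 CPM (0.18). Rpl34-ps1, a pseudogene whose reads may belong to Rpl34 or its copies, was at 149.7 CPM in the first group, 2.23 in the shared group and 173 in the second (-0.32).

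Genes with a second fold change well above 0 were few. Ear3, an eosinophil ribonuclease with near-identical relatives, was at 109 CPM in the first group, 0.603 in the shared group and 4.19 in the second (4.60). Xlr3b, an X-linked gene of a multicopy family, was at 47.9, 6.26 and 13.2 CPM (1.85). Gvin1, an interferon-inducible large GTPase, was at 42.6, 6.95 and 13.9 CPM (1.55), and Tlr6, a receptor for bacterial lipopeptides, at 16.6, 3.88 and 6.94 CPM (1.24). In the authors' deposited table the adjusted p of the second comparison was 1 for each of these 4 genes.

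The lowest ratios of all belonged to names that the rule for named genes leaves out. LOC100302567 stood at -10.63, Gm20571 at -5.02 and Gm6251 at -4.20, and the first 2 were at 0.154 and 0.599 CPM in the first group, where the size of a ratio depends on how zero counts were handled. Xist, the RNA that coats the inactive X chromosome, was at 118, 80.7 and 62.4 CPM (0.90).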
